A study of Mus musculus with 21 samples.

Results

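The immediate-early genes Fos, Jun, Egr1, Egr2 and Myc were followed across 21 mouse lung libraries. They were taken by name from the 770 gene probes of an immune and cancer panel, and all 5 were on it. They were chosen by their counts, which differed strongly between the 2 instrument runs of the experiment, so the difference between runs is described here without a test, while the effects of dust and carcinogen were tested. All mice were A/J, an inbred strain prone to lung tumors, of both sexes, 8 to 12 weeks old on receipt. They took 50 µL of saline or of 12.5% hog dust extract (HDE), made by steeping dust of indoor hog barns in liquid and filtering it sterile, through the nose 3 times a week for 24 weeks. In week 4 they received an intraperitoneal injection, either NNK at 100 mg/kg, a tobacco-specific carcinogen of the nitrosamine class, or buffer alone. The 4 groups were saline only (6 libraries), HDE only (4), saline + NNK (6) and HDE + NNK (5), each library from the lung of 1 mouse. Control mice of a later experiment had also received ethanol in saline by vein, and the sources used here do not say which libraries these are. The left lung had been lavaged and its tumors cut out before RNA was taken, so these values may hold few cells of the airspaces and of tumors.

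Immediate-early genes are switched on within minutes of a growth factor, cytokine or mechanical stimulus, without new protein synthesis, by kinases that activate transcription factors already bound at their promoters. Their messages decay quickly, which makes them known markers of recent stimulation, and handling of a tissue before it is preserved can also induce them. Fos and Jun encode partners of the dimeric transcription factor AP-1, Egr1 and Egr2 encode zinc finger transcription factors, and Myc encodes a basic helix-loop-helix factor that promotes growth and division.

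The nCounter instrument counts color-coded probe pairs bound to each transcript without amplification. Run 1 held 12 libraries (2 saline only, 2 HDE only, 4 saline + NNK, 4 HDE + NNK) and run 2 held 9 (4, 2, 2 and 1). Libraries totalled 174604 to 529829 gene counts. Each was scaled by the geometric mean of 4 housekeeping genes, Eef1g, Oaz1, Rpl19 and Sdha, and the result is called a normalized count. The mean of the 8 negative control probes, which have no target, was 19.6 to 27.6 raw counts in run 1 and 7.75 to 17.5 in run 2. The 15 other housekeeping genes tested had a median difference of -0.054 (log2, run 2 minus run 1), from -0.55 to 0.43. A saline only library of run 2 (lane 3) carried an instrument mark. An HDE only library of run 2 (lane 12) carried no mark and was doubted here only after the data were seen. Labels give no other batch, and it was not stated which experiment each run held, so runs may differ in animals as well as in handling.

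Promoter sequence from RefSeq (build GRCm38.p6) was matched for 3 of the 5 genes, Fos, Jun and Egr2, and is shown for these. Their HDE values, given after the levels, lay under 0 for Fos and Jun and above 0 for Egr2, which was near background. A relation between the sequences and the HDE values was not tested. Each line holds the 250 bases before the start of transcription, 5′ to 3′ on the gene's own strand, and the Egr2 window is 1 of 5 annotated for that gene. Capitals mark matches to TGACGT, the core of a cyclic AMP response element, to TGACNTCA, a site of the AP-1 type, to the CArG box bound by serum response factor, and to TATAAA.
Fos, chr12:85473640-85473889, plus strand: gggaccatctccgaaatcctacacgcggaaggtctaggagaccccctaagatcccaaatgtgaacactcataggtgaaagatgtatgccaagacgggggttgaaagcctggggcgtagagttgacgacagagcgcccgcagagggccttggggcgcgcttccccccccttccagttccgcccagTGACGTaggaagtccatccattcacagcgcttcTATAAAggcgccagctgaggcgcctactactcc
Jun, chr4:95052223-95052472, minus strand: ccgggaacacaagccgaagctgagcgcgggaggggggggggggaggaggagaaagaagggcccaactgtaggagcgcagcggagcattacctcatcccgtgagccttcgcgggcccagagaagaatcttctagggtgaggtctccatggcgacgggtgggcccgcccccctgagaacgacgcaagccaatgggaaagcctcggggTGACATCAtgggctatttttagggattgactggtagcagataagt
Egr2, chr10:67537619-67537868, plus strand: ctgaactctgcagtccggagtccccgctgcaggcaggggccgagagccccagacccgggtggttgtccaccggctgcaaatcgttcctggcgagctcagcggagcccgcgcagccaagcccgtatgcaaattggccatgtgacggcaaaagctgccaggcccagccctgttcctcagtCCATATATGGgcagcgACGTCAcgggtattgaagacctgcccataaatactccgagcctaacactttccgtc
On both strands, TGACGT was found in 6.47% of 32851 promoter windows of this length, TGACNTCA in 7.49%, the CArG box in 1.47% and TATAAA in 12.4%. Fos held a TGACGT match that begins 66 bases before its start and a TATAAA match 33 bases before it. Jun held TGACATCA at 45 bases before its start. The Egr2 window shown held a CArG box at 72 bases and TGACGT, read on the other strand, at 56 bases before its start. Of the other Egr2 windows, that beginning at chr10:67535249 held no match. That beginning at chr10:67537316 held a different CArG box, CCTTTTTTGG, and no TGACGT. The remaining windows overlap the one shown and held both. A single site can match both TGACGT and TGACNTCA, and none of the matches shown overlapped another. A match is a description of letters, and binding was not measured here. Bases farther upstream were not searched, so a site not marked here may lie outside the window.

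Fos stood higher in run 1 than in run 2 in both arms, and within each run its median was lower with HDE. In run 1, the 6 saline libraries had 577 to 1314 normalized counts of Fos (median 744) and the 6 HDE libraries 219 to 660.3 (median 586). All 6 HDE libraries of run 1 lay under the saline median and 3 of them under every saline library. In run 2, the 6 saline libraries had 133 to 289 counts (median 189.6), and the 3 HDE libraries had 119, 135 and 167. The 3 HDE libraries again lay under the saline median, although the arms overlapped. By group, Fos averaged 649 ± 437 (SD, n = 6) with saline + NNK, 416 ± 238 (n = 5) with HDE + NNK, 365 ± 257 (n = 4) with HDE only and 363 ± 232 (n = 6) with saline only, and the ranges of neighbours in this order overlapped.

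**Figure D1:**
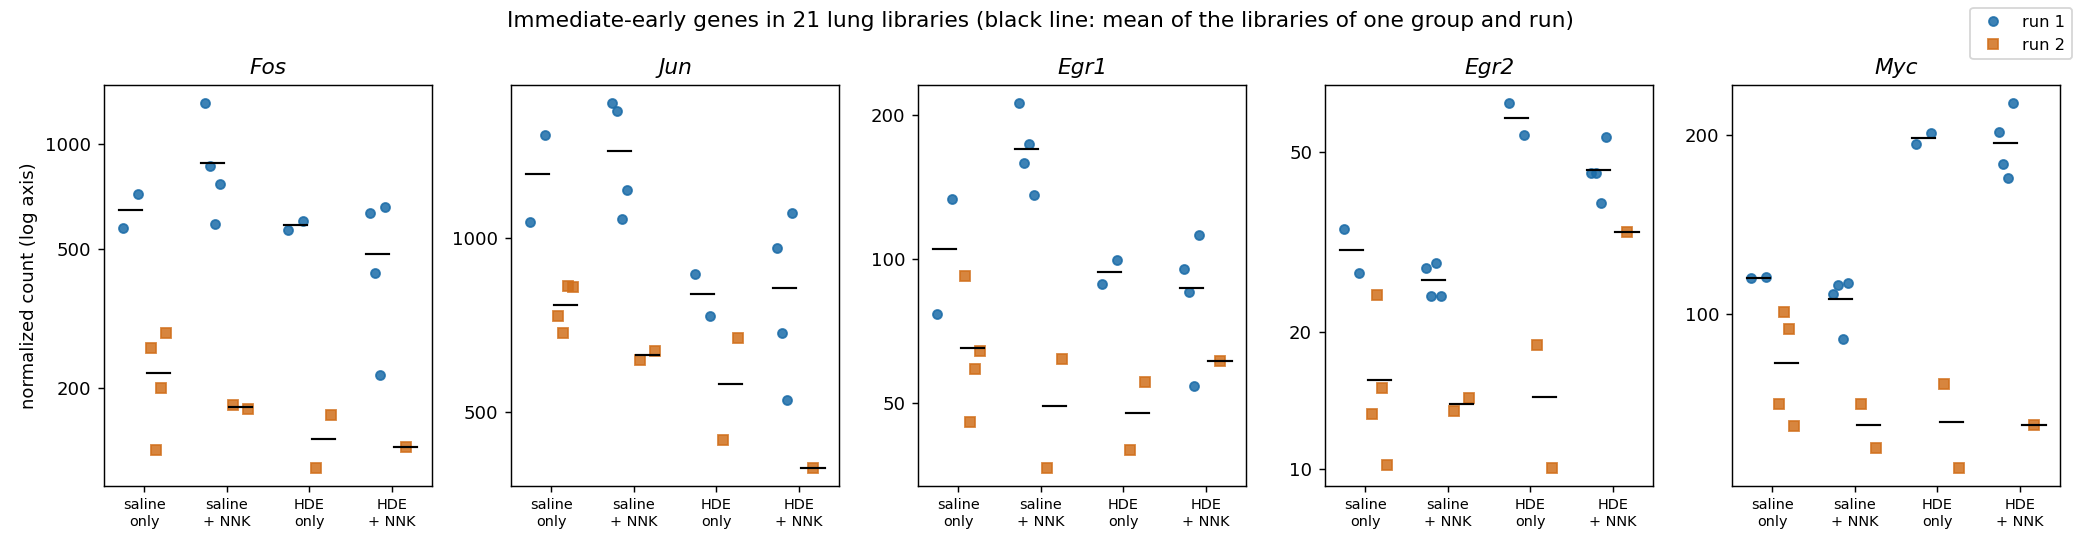
Normalized counts (log axis) of the 5 genes in each of 21 libraries, by group and run, with a black line at the mean of each group in each run. Saline libraries of Fos are separated by run, at 577 to 1314 in run 1 against 133 to 289 in run 2, while an HDE library of run 1 lies at 219. Myc of run 1 is higher in every HDE library than in any saline library.

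Jun, the AP-1 partner of Fos, showed the same order with less spread. In run 1 it was read at 1065 to 1705 normalized counts (median 1356) with saline and at 525 to 1104 (median 798) with HDE. Of the 6 HDE libraries, 5 lay under every saline library of that run. In run 2 the saline libraries had 615 to 825 counts (median 708) and the HDE libraries 401, 448 and 672, of which the lower 2 lay under every saline library. Group means were 1149 ± 472 (SD, n = 6) with saline + NNK, 939 ± 307 (n = 6) with saline only, 735 ± 293 (n = 5) with HDE + NNK and 679 ± 174 (n = 4) with HDE only, with overlapping ranges between neighbours.

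Egr1, a zinc finger factor that responds to the same serum and stress signals, followed Fos and Jun in run 1. Its 6 saline libraries there had 76.6 to 212 normalized counts (median 147) and its 6 HDE libraries 54.2 to 113 (median 92.1), all 6 under the saline median. In run 2 it was low in both arms, at 36.6 to 92.1 (median 60.3) with saline and at 39.8, 55.3 and 61.3 with HDE, and the HDE values lay inside the saline range. Its group means ran from 130 ± 67.7 (SD, n = 6) with saline + NNK through 81.8 ± 24.1 (n = 5) with HDE + NNK and 78.5 ± 31.2 (n = 6) with saline only to 70.8 ± 28.0 (n = 4) with HDE only, all with overlapping ranges.

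The highest Fos, Jun and Egr1 of all 21 libraries came from 1 lung, the saline + NNK library of run 1 lane 1, with 1314, 1705 and 212 normalized counts. The lowest Fos, Jun and Egr1 among the HDE libraries of run 1 also came from 1 lung, HDE + NNK of lane 9, with 219, 525 and 54.2. Myc was 108 in the first of these, inside the range of the other saline libraries of run 1, and 169 in the second, the lowest of its arm.

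Myc differed from the AP-1 genes in direction and between runs. In run 1, the 6 saline libraries had 90.9 to 116 normalized counts of Myc (median 112) and the 6 HDE libraries 169 to 226 (median 198), without overlap. Of the 388 genes tested, 26.5% were likewise higher in every HDE than in every saline library of run 1. In run 2 the saline libraries had 59.5 to 101 (median 70.7) and the HDE libraries 55.3, 65.1 and 76.4, so that HDE lay inside or under the saline range. Group means were 168 ± 61.8 (SD, n = 5) with HDE + NNK, 132 ± 76.7 (n = 4) with HDE only, 93.6 ± 21.6 (n = 6) with saline only and 92.3 ± 22.8 (n = 6) with saline + NNK, and the ranges overlapped.

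Egr2, a relative of Egr1 known from nerve and immune cell differentiation, was scarcely above background. Its raw counts were 6 to 50, and 10 of 21 libraries passed the mean of the negative controls plus 2 SD, among them 5 of 6 HDE and 2 of 6 saline libraries of run 1, and 2 of 3 HDE and 1 of 6 saline libraries of run 2. In run 1 the saline libraries had 24.1 to 33.7 normalized counts (median 27.4) and the HDE libraries 38.6 to 64.1 (median 49.45). The arms did not overlap, as for 26.5% of the 388 genes tested, a set that leaves out Egr2. This gap rests on counts near background: the HDE only library of lane 12 had 23 raw counts beside a negative control mean of 22.75, and reached 54.6 normalized counts through its scaling gene mean of 496. In run 2 the values were 10.2 to 24.2 (median 13.9) with saline and 10.0, 18.7 and 33.2 with HDE. The group order was HDE + NNK at 43.1 ± 7.79 (SD, n = 5), HDE only at 36.9 ± 26.5 (n = 4), saline + NNK at 22.0 ± 6.55 (n = 6) and saline only at 20.6 ± 9.18 (n = 6). Neighbours in this order had overlapping ranges.

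**Figure D2:**
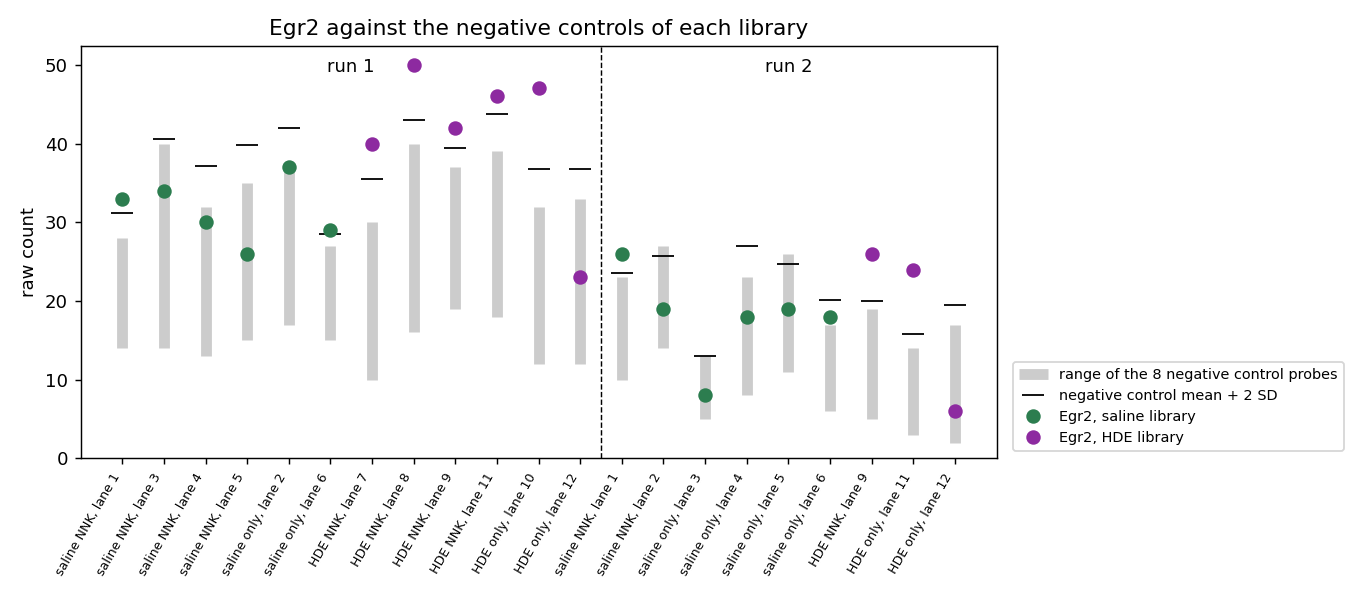
Raw counts of Egr2 in each library (points, by arm) with the range of the 8 negative control probes of the same library (grey bars) and their mean plus 2 SD (black dashes), run 1 at left and run 2 at right. In 10 of 21 libraries Egr2 lies above the dash, 7 of them in run 1.

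The first comparison asked whether lungs exposed to HDE differed from lungs exposed to saline, averaging the contrasts in mice with and without NNK. Jun was lower with HDE, at -0.56 ± 0.22 (log2 fold change ± SE, adjusted p = 0.037 by edgeR's quasi-likelihood test), and Myc was higher, at 0.67 ± 0.23 (adjusted p = 0.018). Fos and Egr1 did not pass the test, at -0.33 ± 0.41 (adjusted p = 0.54) and -0.42 ± 0.28 (adjusted p = 0.22). Thus 2 of the 4 members tested were called, where 49.5% of all 388 genes were called, 39.4% higher and 10.1% lower, so a call by itself did not set a member apart. The split of 153 higher and 39 lower genes depended on the scaling, being 117 and 108 with TMM, 139 and 71 with all housekeeping genes, 120 and 113 with DESeq2's median ratios and 55 and 31 with positive controls. The calls were close to the threshold of 0.05. That of Jun was lost in 9 of 21 fits that left out 1 library, with adjusted p up to 0.089. That of Myc was lost with TMM scaling (0.44, adjusted p = 0.053) and positive controls (0.39, adjusted p = 0.33), and without either HDE only library of run 1, lane 10 (adjusted p = 0.071) or lane 12 (adjusted p = 0.058).

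With the run as a further term in the model, all 4 members tested were called. Lower with HDE were Fos, at -0.60 ± 0.19 (log2 ± SE, edgeR adjusted p = 0.013), Jun, at -0.65 ± 0.14 (adjusted p = 0.00038), and Egr1, at -0.53 ± 0.19 (adjusted p = 0.024). Myc was higher, at 0.45 ± 0.14 (adjusted p = 0.0096). In that fit 52.1% of genes were called, 39.4% higher and 12.6% lower. The standard error of Fos fell from 0.41 to 0.19 once the run was in the model. The genes were chosen by their difference between runs, so this fall is no separate finding. HDE and saline libraries were spread unevenly over the runs, 6 of 9 and 6 of 12 being read in run 1.

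Egr2 had a mean raw count of 28.6, under the minimum of 87 for the fit, and was tested alone. Its mean log2 (normalized count + 1) was 0.81 higher with HDE (exact permutation test, two-sided p = 0.015, 9 against 12 libraries). Within run 1 the difference was 0.83 (exact permutation p = 0.0022), while run 2 gave 0.33 (3 against 6 libraries, exact permutation p = 0.43, smallest possible p 0.012). These tests compare scaled counts of which 11 of 21 did not exceed the negative controls plus 2 SD, so the size of the difference is uncertain. With that level subtracted, the difference was 1.28 in run 1 (exact permutation p = 0.015) and 1.30 in run 2 (exact permutation p = 0.083).

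How the HDE effect held within each run was read from a model with an HDE effect for each run. In run 1, all 4 were called, where 48.5% of all genes were, 41.2% higher and 7.22% lower. Lower there were Fos, at -0.65 ± 0.24 (log2 ± SE, edgeR adjusted p = 0.033), Jun, at -0.76 ± 0.17 (adjusted p = 0.00095), and Egr1, at -0.74 ± 0.22 (adjusted p = 0.0089), and Myc was higher, at 0.84 ± 0.12 (adjusted p = 5.7e-06). In a fit of run 1 alone, with 46.1% of genes called, Fos was not called (-0.51 ± 0.27, adjusted p = 0.15), while Jun (-0.74, adjusted p = 0.0100), Egr1 (-0.57, adjusted p = 0.038) and Myc (0.82, adjusted p = 0.00010) were. In run 2, with 3 HDE libraries and 38.1% of genes called, no member was called in the model over both runs. The run 2 values were -0.57 ± 0.32 for Fos (adjusted p = 0.17), -0.51 ± 0.22 for Jun (adjusted p = 0.065), -0.20 ± 0.31 for Egr1 (adjusted p = 0.62) and -0.20 ± 0.16 for Myc (adjusted p = 0.32). In a fit of run 2 alone, with 37.4% of genes called, Jun was called (-0.55 ± 0.16, adjusted p = 0.023), so its call in run 2 differed between these models.

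The difference between these effects was itself tested. For Myc the HDE effect was lower in run 2 than in run 1, with a difference of -1.04 ± 0.20 (log2 ± SE, edgeR adjusted p = 0.0077). It was 1 of 3 genes called in this test, 0.773% of the 388, with the matrix protein fibronectin, Fn1 (-0.99), and the urokinase receptor, Plaur (-0.90), and DESeq2 called 15. The call of Myc was lost with TMM scaling (-0.84, adjusted p = 0.069), all housekeeping genes (-0.84, adjusted p = 0.068), positive controls (-0.72, adjusted p = 0.996) and background subtraction (-1.31, adjusted p = 0.087). No difference between runs was called for Fos (0.080 ± 0.40, adjusted p = 0.92), Jun (0.24 ± 0.27, adjusted p = 0.63) or Egr1 (0.54 ± 0.38, adjusted p = 0.41). The median of this difference over all genes was -0.21. Because the genes were chosen by their difference between runs, the Myc call in this test is not independent of that choice.

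**Figure D3:**
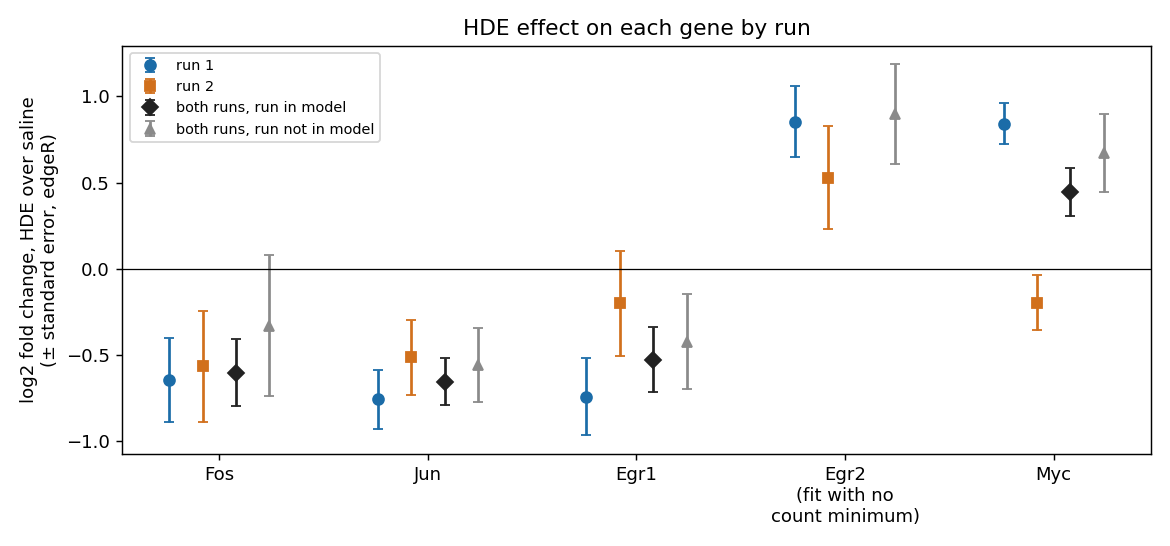
Log2 fold change of HDE over saline (points, with standard errors) for each gene in run 1, in run 2 and over both runs with and without run in the model. Fos and Jun lie under 0 in both runs, while Myc lies at 0.84 in run 1 and at -0.20 in run 2. Egr2 comes from a fit with no count minimum, and its fit with run in the model is not drawn.

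Simple effects split the HDE comparison by NNK. In mice without NNK no member was called, with Jun at -0.47 ± 0.32 (SE, edgeR adjusted p = 0.30), Myc at 0.47 ± 0.34 (adjusted p = 0.33), Egr1 at -0.19 ± 0.41 (adjusted p = 0.78) and Fos at -0.018 ± 0.60 (adjusted p = 0.99), where 34.5% of genes were called. With run in the model, where 36.1% were called, Jun was called (-0.58, adjusted p = 0.025) and Fos (-0.46), Egr1 (-0.38) and Myc (0.20) were not. In mice with NNK, where 35.6% of genes were called, Myc was higher, at 0.87 ± 0.30 (adjusted p = 0.028), and Egr1 (-0.66, adjusted p = 0.17), Jun (-0.64, adjusted p = 0.094) and Fos (-0.64, adjusted p = 0.38) did not pass. With run in the model, where 40.2% were called, all 4 were called, Egr1 at -0.68 (adjusted p = 0.032), Fos at -0.74 (adjusted p = 0.026), Jun at -0.72 (adjusted p = 0.0036) and Myc at 0.69 (adjusted p = 0.0039). The difference between these simple effects, the HDE by NNK interaction, was called for 0 of 388 genes by edgeR (4 at an unadjusted p under 0.05) and for 0 by DESeq2 (5 unadjusted). The members' interaction values were -0.62 ± 0.81 for Fos, -0.17 ± 0.43 for Jun, -0.47 ± 0.55 for Egr1 and 0.41 ± 0.46 for Myc.

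NNK was compared with its absence over both arms. No member passed, and 0 of 388 genes did by edgeR (0%, 9 at an unadjusted p under 0.05) or by DESeq2 (10 unadjusted). Fos was at 0.52 ± 0.41 (SE), Egr1 at 0.48 ± 0.28, Jun at 0.20 ± 0.21 and Myc at 0.18 ± 0.23, each with an edgeR adjusted p of 0.97. These values moved with the run, and 8 of 11 NNK libraries but 4 of 10 others were read in run 1. With run in the model Fos was at -0.068, Jun at -0.11, Myc at -0.10 and Egr1 at 0.11. In the saline arm of run 1, Egr1 had 136, 159, 174 and 212 normalized counts with NNK and 76.6 and 133 without it. In that of run 2 it had 36.6 and 61.8 with NNK and 45.7, 58.8, 64.3 and 92.1 without it, and these overlapped.

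The run difference, which chose the genes, was as follows. On the mean of both arms, run 2 minus run 1 was -1.88 (log2) for Fos, the lowest of 388 tested genes, -1.12 for Egr2, -1.04 for Myc, -1.02 for Egr1 and -0.79 for Jun. The median of the tested genes was -0.20, and 6 genes lay at or under -1. Fos was 3.68-fold higher in run 1, with 3.87-fold in saline and 3.49-fold in HDE libraries. Jun was 1.73-fold higher, with 1.88-fold and 1.60-fold. Egr1 was 2.03-fold higher, with 2.44-fold in saline and 1.69-fold in HDE libraries. Myc was 2.06-fold higher, with 1.44-fold in saline and 2.96-fold in HDE libraries.

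Saline libraries of run 2 lay under every saline library of run 1 for Fos and Jun, as for 7.22% of the tested genes. HDE libraries of run 2 lay under every HDE library of run 1 for Fos, Myc and Egr2, as for 23.2% of the tested genes. Over both arms together no member separated the runs, which 1.55% of genes did. The lowest 4 genes outside the chosen set were Thbs1, a matrix glycoprotein, at -1.11, Ciita and Cxcl13 at -1.02 and Trp53 at -0.92. Jun was the 17th lowest of 388, and other genes lay between Trp53 and Jun. Subtraction of the negative control mean plus 2 SD left -1.98 for Fos, -0.78 for Jun, -0.93 for Egr1, -1.16 for Myc and -0.015 for Egr2. The median of all tested genes was then -0.077, so the run difference of Egr2 did not outlast this subtraction. With positive control scaling, in which the median of all genes fell to -0.78, Fos was at -2.46, Jun at -1.38, Egr1 at -1.60, Egr2 at -1.67 and Myc at -1.62.

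**Figure D4:**
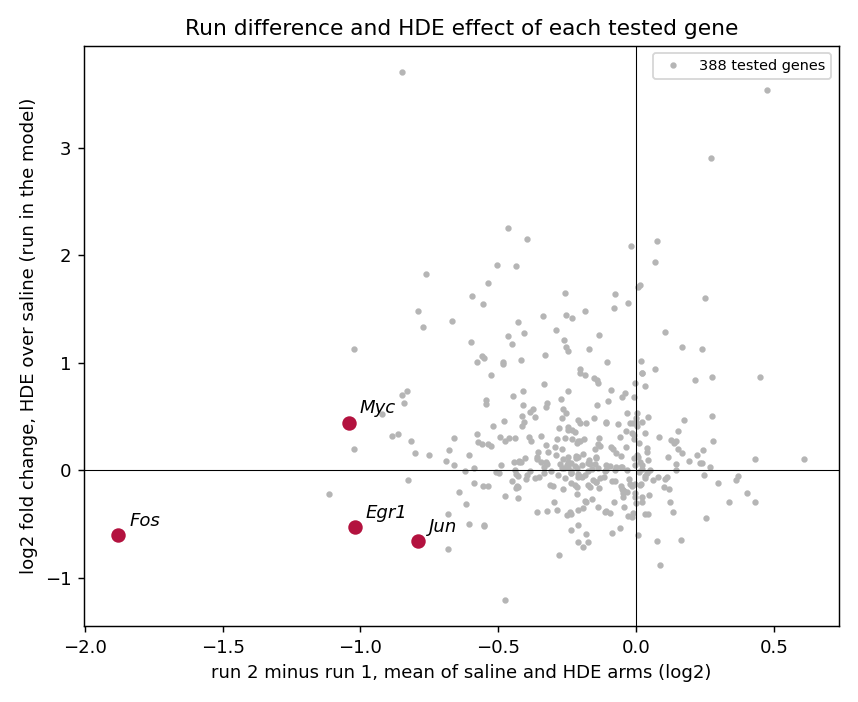
Each tested gene by its difference between runs (x axis, log2, run 2 minus run 1) and its HDE effect with run in the model (y axis, log2), the 4 tested members in red. Fos lies farthest left, at -1.88 against a median of -0.20, and Fos, Jun and Egr1 lie under 0 on the y axis while Myc lies above it.

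Across the 21 libraries, Fos, Jun and Egr1 varied together and Egr2 varied with Myc. Pearson's r of log2 normalized counts was 0.90 for Fos and Egr1, 0.88 for Fos and Jun, 0.83 for Jun and Egr1 and 0.89 for Egr2 and Myc, values that include the run difference by which the genes were chosen. Within run 2 alone r was 0.75 for Fos and Jun, 0.64 for Fos and Egr1, 0.35 for Jun and Egr1 and 0.40 for Egr2 and Myc. After the mean of each group in each run was taken out, r was 0.84 for Fos and Jun, 0.75 for Fos and Egr1, 0.65 for Jun and Egr1 and 0.72 for Egr2 and Myc. Spearman's rho of these residuals was 0.82, 0.76, 0.58 and 0.53 in the same order. Egr2 passed the negative control mean plus 2 SD in only 10 of 21 libraries, which limits each of its correlations. The points share library and scaling, which can itself give a correlation. Between the sets, the same residual r ran from -0.30 for Fos and Egr2 to 0.18 for Jun and Myc with scaling by the 4 genes. With positive control scaling it ran from 0.39 for Egr1 and Egr2 to 0.79 for Jun and Myc, so the distance between the sets depended on the scaling. With TMM scaling the residual r was 0.80 for Fos and Jun, 0.59 for Jun and Egr1 and 0.73 for Egr2 and Myc. Within run 2 alone, with group means left in, r under TMM scaling was 0.36 for Jun and Egr1 and 0.39 for Egr2 and Myc.

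**Figure D5:**
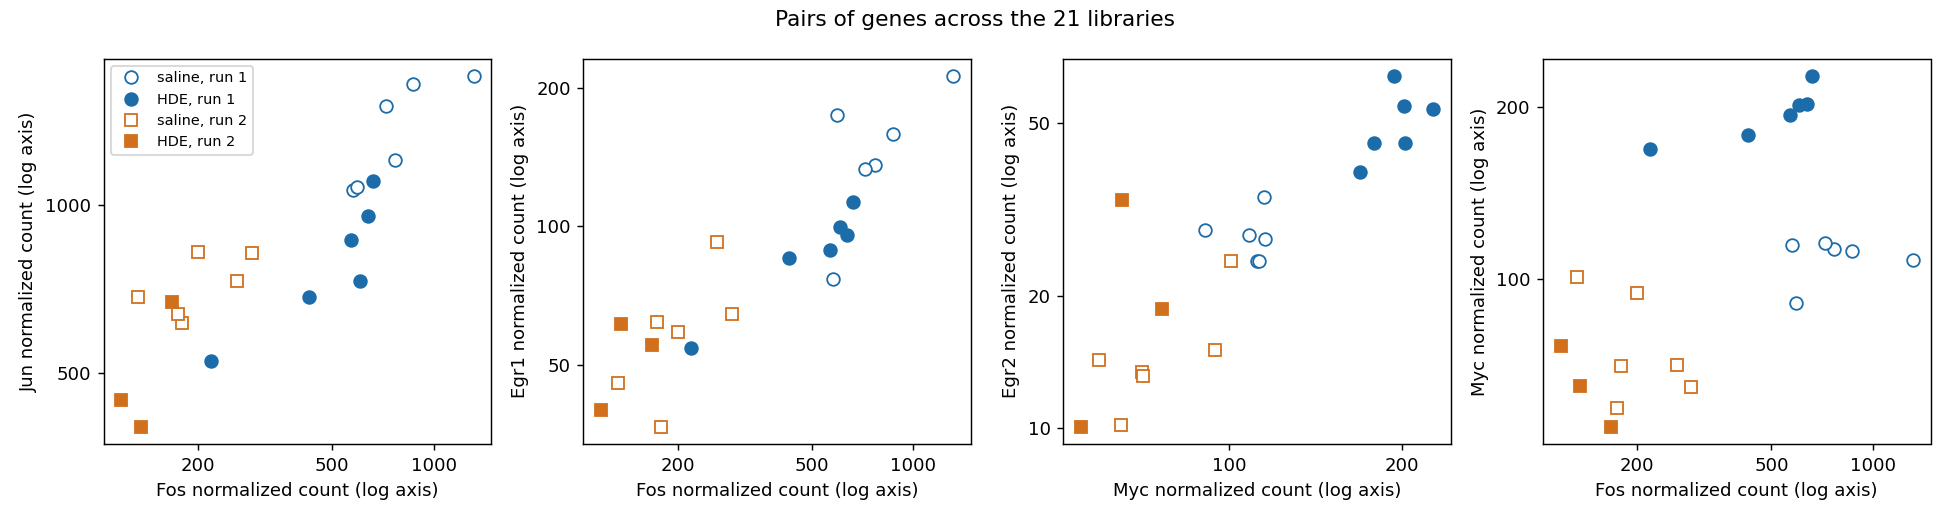
Normalized counts (log axes) of pairs of genes in the 21 libraries, circles for run 1, squares for run 2, filled for HDE. Fos and Jun (r = 0.88) and Fos and Egr1 (r = 0.90) rise together, as do Myc and Egr2 (r = 0.89), while Myc separates the HDE from the saline libraries of run 1 and Fos overlaps, with HDE up to 660.3 and saline from 577.

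By Pearson's r over 21 libraries, which includes the run difference, the 3 tested genes most like a member held 2 other members each for Fos, Jun and Egr1, 1 for Egr2 and 0 for Myc. For Fos they were Mapkapk2, a stress kinase downstream of p38 (0.91), Egr1 and Jun, where the median r of Fos with all tested genes was 0.24. For Jun they included Fos and Egr1. For Egr1 they were Fos, the RNA sensor Ifih1 (0.85) and Jun. Myc was most like Irf5, an interferon regulatory factor of myeloid and B cells (0.90), the NF-kB subunit Nfkb2 (0.89) and the urokinase Plau (0.86), with a median r of 0.43. Egr2 was most like Myc, the RNA sensor adaptor Mavs (0.88) and Irf5 (0.86), with a median r of 0.44. On residuals of group and run, Fos was nearest to Jun, Ifih1 (0.81) and Egr1, and Jun to Fos, Icam2 (0.78) and Ccnd3 (0.75). Egr1 was nearest to Ifih1 (0.82), Fos and Ifnar1 (0.74), Myc to Tap2 (0.71), Mif (0.70) and Psmb9 (0.61), and Egr2 to Cd22 (0.74), Myc and Ccl5 (0.69).

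Of 6 AP-1 and CREB partners on the panel, 2 were tested, Creb1 (0.082, edgeR adjusted p = 0.60) and Atf2 (-0.0082, adjusted p = 0.97), and 0 were called for HDE. Of 13 tested kinases and regulators on the route to these genes, 1 was higher, Map3k1 (0.35, adjusted p = 0.024), 0 were lower, and their median was -0.085 beside 0.15 for all genes. Dusp6, a phosphatase of ERK kinases, was at -0.32 (adjusted p = 0.060), and with run in the model it was called, at -0.39 (adjusted p = 0.015). The list had a median run difference of -0.15, led by Mapkapk2 (-0.44).

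Of 12 other primary-response genes tested, 3 were higher and 4 lower with HDE, with a median of 0.0094. Cd83, a marker of activated dendritic and B cells, was higher, at 1.17 ± 0.16 (SE, adjusted p = 1.9e-06), and Tnfaip3, an inhibitor of NF-kB, likewise, at 0.57 ± 0.13 (adjusted p = 0.00060). The growth factor Vegfa was lower, at -0.73 ± 0.13 (adjusted p = 4.5e-05), and so was thrombomodulin, Thbd, at -0.57 ± 0.14 (adjusted p = 0.0015). Their median run difference was -0.35, led by Thbs1 (-1.11), Nfkbia (-0.83) and Cdkn1a (-0.68). Of the 3 proliferation genes and Myc partners on the panel only Ccnd3, a cyclin, was tested, at -0.13 (adjusted p = 0.44).

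Markers of cell types moved in the same comparisons, and in RNA of whole lung fewer cells of a type and less RNA per cell cannot be told apart. Of 6 endothelial markers, 6 were lower with HDE, with a median of -0.58. Their summed level was 8305 to 11247 in saline and 4966 to 9961 in HDE libraries of run 1, and 8985 to 10331 and 5007 to 8235 in run 2. They fell in the comparison in which Jun did, and their part in the values of Fos, Jun and Egr1 was not tested. Between runs the median difference of the endothelial markers was -0.13, where that of all tested genes was -0.20. Of 4 macrophage markers 3 were higher and 1 lower (Marco, -1.16), with sums over 5 genes of 1260 to 1585 with saline and 1696 to 2899 with HDE in run 1, and of 1210.1 to 1968 and 1666 to 3539 in run 2. The 2 tested B cell markers were higher, with a median of 1.48 and sums over 4 genes of 277 to 462 with saline and 556 to 1164 with HDE in run 1, and of 156 to 249 and 380.2 to 672 in run 2. The 1 tested gene for T cells (Cd3g, 0.67) and for neutrophils (S100a8, 0.48) was higher, as was 1 of 3 epithelial genes (Muc1, 0.49). The 1 tested platelet gene (Ppbp, -0.22) and mast cell gene (Kit, -0.26) did not pass.

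Like Myc, the tested fibroblast and T cell markers were called higher with HDE in run 1 and were not called higher in run 2. In run 2 Myc was at -0.20, while the T cell gene kept its direction. In run 1, 3 of 3 tested fibroblast genes were higher with HDE, with a median of 0.41, and in run 2, 0 were higher and 1 was lower, with a median of 0.050. Their sums over 4 genes were 999 to 1439 with saline and 1477 to 2106 with HDE in run 1, and 796 to 1050.5 and 713 to 1009.9 in run 2. The T cell gene Cd3g was called in run 1 (0.88) and not in run 2 (0.32), and T cell sums over 5 genes were 201 to 251 with saline and 329.8 to 461 with HDE in run 1, and 153 to 252 and 213 to 265 in run 2. None of these 4 genes was called in the test of the difference between runs, and their part in the values of Myc was not tested.

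Sex was given only with the second table, in which values under 87 were raised to 87, and was not tied to runs here, so the balance of the sexes between the arms within a run was not tested, and differences between the arms within a run may also be differences of sex. In that table males minus females was 0.33 for Fos, 0.26 for Jun, 0.53 for Egr1 and 0.017 for Myc (log2, limma with 4 group means, adjusted p = 0.997 each), and 1 of 388 genes was called. Saline groups held 4 males and 8 females, and HDE groups 5 males and 4 females. Egr1 lay at the floor in 13 of 21 samples and Myc in 6, which limits this comparison for both.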

How the data were processed

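Lung RNA (50 ng per mouse, 16 h hybridization) was counted on an nCounter Sprint with a mouse immune and cancer panel of 784 probes. The authors deposited raw counts exported from nSolver, with no scaling, and a second table, treated here as signal, in which the authors raised each gene count under 87 to 87. The raw table gives group, run and lane, and the second sex and replicate number, and libraries were not matched between them. No aligner or genome build applies. Counts were scaled by Eef1g, Oaz1, Rpl19 and Sdha, as in the study's methods. The 388 other genes whose raw counts averaged 87 or more were tested with edgeR 4.0.16 (quasi-likelihood, robust, 4 group means, Benjamini-Hochberg over all 388, call at adjusted p under 0.05) in R 4.3.3. Models with run, and with HDE by run, used the same settings. Egr2, under the minimum, was tested alone by exact permutation of log2 (normalized count + 1). DESeq2 1.42.0 and limma 3.58.1 were alternatives. The edgeR tests of HDE against saline and of HDE by run were first tried on simulated data. The number of animals limits the precision, and p-values measure the spread between these libraries.

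The members and gene lists were chosen with earlier results of these data known. Named genes were the 5 members, the 4 scaling genes, for each member the 3 tested genes with the highest r over 21 libraries and on residuals, and of each list up to 4 tested genes with the smallest adjusted p and up to 3 with the largest run difference. Fn1, Ciita, Cxcl13 and Trp53 were named after their values were seen. A gene that this rule takes is not reported here. A summary column of the raw table was not used, since its threshold is not given in the sources used here.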

Additional observations from a re-analysis of the deposited data

Results flagged for a closer look

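The effect of HDE on Myc differed between the runs by a test of the difference itself, the HDE by run interaction, at -1.04 ± 0.20 (log2 ± SE, edgeR adjusted p = 0.0077). The genes were chosen by their difference between runs, so this test is not independent of that choice. For Myc that difference was -1.57 (log2, run 2 minus run 1) in HDE and -0.52 in saline libraries. Myc was higher with HDE by 0.84 in run 1, in 6 of 6 libraries, and stood at -0.20 in run 2, where 3 HDE libraries were read. Run 2 held 1 HDE + NNK library. The call held in 3 of 7 other settings and was lost with TMM (-0.84), all housekeeping genes (-0.84), positive controls (-0.72) and background subtraction (-1.31). DESeq2 with the same scaling gave -1.02 (adjusted p = 0.00016). A check of 20 groups for an outlying library flagged none for any member. Even so, Myc in the HDE + NNK library of run 2 was 65.1 normalized counts, beside 169 to 226 in the HDE + NNK libraries of run 1.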

How the results depend on the processing

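Under other scalings, minimums, tools and tables, Jun kept its direction and call in 15 of 15 fits (-0.94 to -0.54), and Fos its direction (-0.78 to -0.25). Over all genes the median change was 0.15 (log2) and moved to -0.04 with TMM and -0.14 with positive controls. With run as a term Fos was called (-0.60). Egr1 was called with TMM (-0.62), positive controls (-0.80), background subtraction (-1.14), DESeq2's median ratios (-0.62), run as a term (-0.53) and run 1 alone (-0.57), and was at 0.060 by limma on the table with the floor, where 13 of 21 values are the floor. Myc lost its call with TMM (0.44) and positive controls (0.39) and was at -0.15 in run 2 alone. Its HDE by run interaction lost the call with TMM (-0.84), all housekeeping genes (-0.84), positive controls (-0.72) and background subtraction (-1.31). Egr2 lost it in run 2 alone (0.33) and with positive controls (0.57). The causes were not tested.

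For NNK, where nothing was called, signs turned with run as a term (Fos -0.068, Jun -0.11, Myc -0.10), in run 1 alone (Myc -0.073), in run 2 alone (Fos -0.20, Jun -0.38, Egr1 -0.0022, Myc -0.19) and by limma on the table with the floor, without and with sex (Egr1 -0.054 and -0.050). The count of 192 called of 388 genes became 86 of 388 with positive controls, 299 of 766 with no minimum and 112 of 218 with 87 counts in every library.

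When 1 library was left out, Jun ran from -0.65 to -0.47 and lost its call without run 1 saline + NNK lane 1 or 3, saline only lane 2 or 6, HDE + NNK lane 8 or 9, or run 2 HDE + NNK lane 9, HDE only lane 11 or 12 (adjusted p 0.050 to 0.089). Myc ran from 0.53 to 0.79, Fos from -0.50 to -0.16, Egr1 from -0.52 to -0.31, Egr2 from 0.71 to 1.03, and called genes from 174 to 199. The Myc interaction ran from -1.14 to -0.92 and stayed called in all 21 fits. The Fos interaction, not called, ran from -0.12 to 0.21. Without the 2 doubted libraries, chosen after seeing the data, Jun was at -0.59 and Myc at 0.76, both called.

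Replicate numbers shared between groups in the second table did not pair its samples (28 pairs, r of -0.23 to 0.51, 6 of 21 samples nearest to their own number). With them as a replicate block, Fos was at -0.63, Jun -0.71, Egr1 -0.16 and Myc 0.52, and 179 genes were called. Library number, and background for Egr2, limit what was detectable.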
